A study of Mus musculus with 116 samples.

Results

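Astrocyte and oligodendrocyte lineage genes were followed through cortical development with and without Eed, a core subunit of Polycomb repressive complex 2 (PRC2). The set was a fixed list of 10 genes out of 53379 gene identifiers counted, 6 of the astrocyte lineage (Gfap, Aqp4, Aldh1l1, Aldoc, S100b and Id3) and 4 of the oligodendrocyte lineage (Olig1, Olig2, Sox10 and Pdgfra). Their unstranded read counts were taken from the green libraries that held at least 1000000 uniquely aligned reads making up at least 60% of all reads, which left 55 of 68 green libraries among the 116 libraries of the series.

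The libraries were made from green fluorescent cells sorted from the neocortex of mice carrying MADM cassettes on chromosome 7 and Emx1-Cre, which recombines in cortical radial glia and therefore reaches their progeny. MADM (mosaic analysis with double markers) labels a sparse set of cells by recombination between homologous chromosomes. In control-MADM (MADM7-GT/TG;Emx1-cre) every cell was Eed+/+, in Eed-MADM (MADM7-GT/TG,Eed;Emx1-cre) the green cells were Eed-/- within an otherwise heterozygous tissue, and in cKO-Eed-MADM (MADM7-GT,Eed/TG,Eed;Emx1-cre) the whole Emx1-Cre lineage was Eed-/-. Green cells of all 3 paradigms carried the paternal chromosome 7 in both copies. The strain label of all mice was CD1, and cortices of several mice were pooled for each sample. Embryonic day (E) 12.5 had 5 control-MADM libraries, 8 Eed-MADM libraries and 4 cKO-Eed-MADM libraries, E13.5 had 2, 2 and 4 in this order, E16.5 had 3, 5 and 4, and the day of birth (P0) had 5, 9 and 4. E12.5 cells had been sorted into another buffer than the later ages, so that buffer and age cannot be told apart for E12.5. The labels name no batch, litter or sequencing run. The p-values measure the spread between these pooled samples.

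The used libraries held 865832 to 2359317 reads on genes at E12.5 and 2784557 to 7249098 at the later ages. Levels are given as counts per 1000000 reads on genes (CPM), scaled over all 55 libraries by the trimmed mean of M values. Eed itself fell from 29.7 ± 3.06 CPM in control-MADM at P0 to 15.5 ± 3.15 in Eed-MADM and to 11.7 ± 3.55 in cKO-Eed-MADM (mean ± SD, n = 5, 9 and 4), and the lowest control library lay above every Eed-/- library at E13.5, E16.5 and P0. Radial glia markers such as Pax6, Sox2 and Emx1 were present in every group. Some E12.5 libraries stood apart, with choroid plexus markers summing to 32552 CPM in cKO-Eed-MADM replicate 3 against at most 114 CPM in the other E12.5 libraries, and red blood cell markers reaching 10359 CPM in cKO-Eed-MADM replicate 2. At E16.5 Eed-MADM replicate 4 held 4766 CPM of choroid plexus markers against at most 132 in the other E16.5 libraries. Without it the members called at E16.5 numbered 0 between Eed-MADM and control-MADM and 4 between cKO-Eed-MADM and Eed-MADM, as with it. The reads that remained do not measure loss of the protein, and only part of the gene is removed by the floxed allele.

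Radial glia of the cortex produce projection neurons before they turn to glia, with astrocytes and oligodendrocyte precursors arising late in embryonic life and around birth. Entry into the astrocyte lineage is promoted by JAK-STAT, BMP and Notch signals that act on genes such as Gfap, and the oligodendrocyte lineage is set up by the transcription factors Olig1, Olig2 and Sox10, with Pdgfra as the growth factor receptor of its precursors. PRC2 places the repressive mark H3K27me3, often at promoters rich in CpG dinucleotides. In sorted bulk samples, more cells of a type and more RNA per cell of that type cannot be told apart.

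The members' promoters differ widely in CpG content, which is shown because PRC2 targets are often CpG-rich. RefSeq promoter windows (GRCm38.p6, 250 bases before to 50 bases after an annotated start) were at hand for 7 of the 10 genes, with 8 windows because Aldoc has 2. The median over all 32851 promoter windows was 7 CpG. The windows of a structural astrocyte gene, of an early response regulator and of the oligodendrocyte genes Pdgfra and Olig2 are given 5′ to 3′ on the gene's own strand, with each CG dinucleotide in capitals.
Gfap, chr11:102897151-102897450, minus strand: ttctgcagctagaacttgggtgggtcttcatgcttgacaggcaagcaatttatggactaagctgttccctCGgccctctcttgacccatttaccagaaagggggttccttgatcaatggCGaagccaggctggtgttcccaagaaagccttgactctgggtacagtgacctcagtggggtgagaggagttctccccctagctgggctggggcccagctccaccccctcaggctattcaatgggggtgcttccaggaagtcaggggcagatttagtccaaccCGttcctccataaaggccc
Id3, chr4:136143572-136143871, plus strand: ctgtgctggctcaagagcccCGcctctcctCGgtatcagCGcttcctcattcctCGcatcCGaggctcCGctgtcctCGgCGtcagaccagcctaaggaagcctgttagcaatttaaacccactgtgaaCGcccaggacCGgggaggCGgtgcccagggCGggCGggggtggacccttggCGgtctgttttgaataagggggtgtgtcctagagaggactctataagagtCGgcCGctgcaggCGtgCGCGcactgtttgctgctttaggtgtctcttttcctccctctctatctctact
Pdgfra, chr5:75152001-75152300, plus strand: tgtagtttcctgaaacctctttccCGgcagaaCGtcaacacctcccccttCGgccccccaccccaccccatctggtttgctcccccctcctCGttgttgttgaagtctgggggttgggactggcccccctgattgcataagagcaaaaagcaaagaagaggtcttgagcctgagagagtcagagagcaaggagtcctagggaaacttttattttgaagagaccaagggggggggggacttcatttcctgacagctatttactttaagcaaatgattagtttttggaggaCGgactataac
Olig2, chr16:91225300-91225599, plus strand: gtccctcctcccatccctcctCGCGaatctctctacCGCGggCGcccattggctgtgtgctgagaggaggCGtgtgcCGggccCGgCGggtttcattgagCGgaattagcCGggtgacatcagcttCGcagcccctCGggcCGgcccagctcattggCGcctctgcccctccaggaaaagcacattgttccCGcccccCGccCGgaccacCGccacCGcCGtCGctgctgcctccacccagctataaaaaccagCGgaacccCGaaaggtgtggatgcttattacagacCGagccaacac
The Gfap window held 3 CpG, a number that 76.7% of all promoter windows reached, and the Pdgfra window held 5. The Id3 window held 19 CpG, which 28.1% of windows reached, and the Olig2 window held 25, which 18.4% reached. The other windows lay between 3 CpG (S100b and the downstream Aldoc start) and 9 (Aldh1l1). The letters TTCNNNGAA, a palindrome of the kind that STAT factors bind, occurred in the windows of Gfap and of the downstream Aldoc start and in 8.3% of all windows. A match of letters is a description of the window and does not show that a factor binds there.

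Before gliogenesis most of these genes were at or near the limit of detection. At E12.5 Gfap had at most 4 reads in any of the 17 libraries and S100b at most 2, and neither passed the filter of a mean above 1 read. Sox10 was at 0 reads in 14 of the 17. Aldoc, the brain isoform of the glycolytic enzyme aldolase, and Id3, an inhibitor of basic helix-loop-helix factors that responds to BMP, were the members with broad expression.

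At E12.5 Aldoc was at 164, 141, 41.8, 29.0 and 63.0 CPM in control-MADM, 4.76 to 224 with a median of 73.3 in Eed-MADM and 36.8, 15.3, 40.1 and 28.9 in cKO-Eed-MADM. Id3 stood at 163, 60.1, 114, 271 and 289.5 CPM in control-MADM, 40.5 to 385 with a median of 214 in Eed-MADM and 373, 274, 135 and 425 in cKO-Eed-MADM. For both genes the 3 groups overlapped. Aldh1l1, the folate enzyme that marks astrocytes, had 11.3, 1.97, 20.6 and 6.27 CPM in the cKO-Eed-MADM libraries against 0, 0, 0, 9.47 and 0 in control-MADM and 0 to 1.72 in Eed-MADM. The cKO-Eed-MADM libraries lay above every Eed-MADM library and overlapped control-MADM through 1 library at 9.47 CPM, and 0.21% of all genes were higher than Eed-MADM without overlap. The edgeR quasi-likelihood test called 0 of 8 tested members in each of the 3 comparisons, as it called 0.0% of all 18100 genes. At an unadjusted p under 0.05 the members numbered 0 against control-MADM, 1 for Eed-MADM against control-MADM (Sox10) and 1 for cKO-Eed-MADM against Eed-MADM, which was Aldh1l1 (log2 difference 4.26 ± 1.25, adjusted p = 0.26), and DESeq2 called none. Leaving out any 1 control-MADM or cKO-Eed-MADM library, those with choroid plexus or red blood cell markers included, gave 0 calls as well. Markers of meninges, a tissue in which Id3 and Pdgfra are also expressed, summed to 31.5 to 2397 CPM over the E12.5 libraries, while Pdgfra itself ranged from 0 to 43.9 CPM with all groups overlapping. The part of meningeal cells in these E12.5 levels was not tested.

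At E13.5, 3 members passed the filter of a mean above 10 reads, Aldoc, Id3 and Olig2. Gfap and Sox10 had 0 reads in the control-MADM and Eed-MADM libraries, and Gfap had 9 reads over the 4 cKO-Eed-MADM libraries. Aldoc was at 228 and 273 CPM in control-MADM and 95.4, 113, 80.3 and 144 in cKO-Eed-MADM. Olig2, the basic helix-loop-helix factor of motor neuron and oligodendrocyte progenitors, stood at 0.208 and 2.69 CPM against 10.4, 13.3, 4.85 and 5.73. Neither pair of groups overlapped, with Aldoc lower and Olig2 higher in cKO-Eed-MADM. Pdgfra, with 3 reads in control-MADM and 33 in cKO-Eed-MADM, was also higher without overlap, the ratio of pooled reads being 6.43-fold, with an exact 95% counting interval of 2.02 to 32.8. With 2 control libraries, 10.3% of all genes were higher without overlap and 9.21% lower, so that such gaps are common. Id3 was at 53.2 and 11.4 CPM in control-MADM, 65.0 and 16.1 in Eed-MADM and 35.3, 21.2, 30.4 and 12.2 in cKO-Eed-MADM, with the groups overlapping. edgeR called 0 of the 3 members in any comparison. Its calls over all genes were 0.0372%, 0.0% and 0.0223% for cKO-Eed-MADM against control-MADM, Eed-MADM against control-MADM and cKO-Eed-MADM against Eed-MADM. Aldoc had an adjusted p of 0.121 against control-MADM (log2 difference -1.22 ± 0.29) and Olig2 0.403. Both were under 0.05 before adjustment, and DESeq2 called Aldoc (adjusted p = 0.01). Aldoc alone was under 0.05 before adjustment in Eed-MADM against control-MADM, and no member was between the Eed-/- groups, with no DESeq2 call in either.

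**Figure D1:**
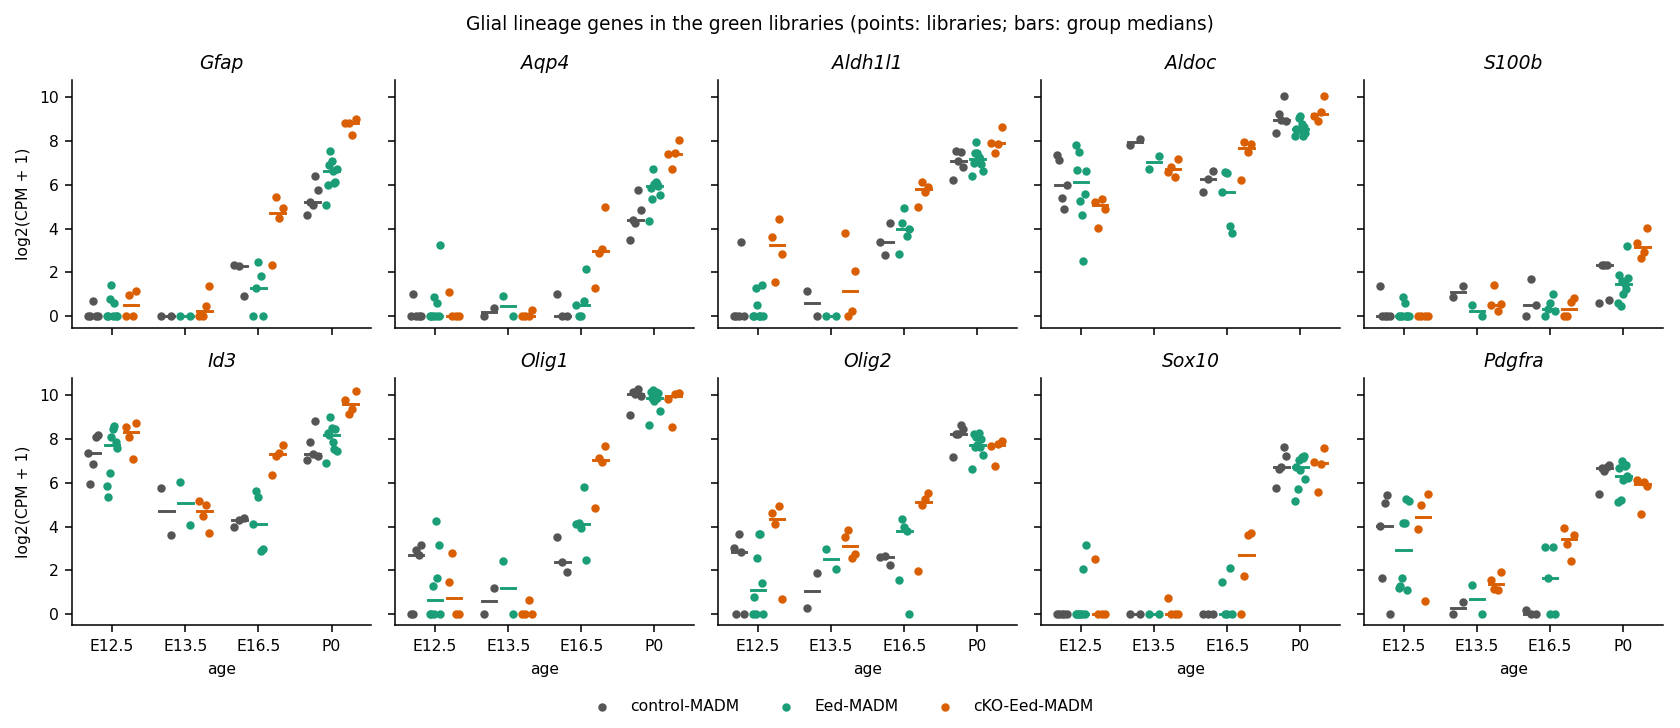
Level of each of the 10 glial lineage genes as log2(CPM + 1) in every used green library, by age on the horizontal axis and by paradigm in colour, with bars at the group medians. Most genes start near 0, and at E16.5 the cKO-Eed-MADM medians of all members but S100b lie above the control-MADM medians, while at P0 the oligodendrocyte genes of the 3 paradigms overlap.

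At E16.5 glial genes of both lineages were higher in cKO-Eed-MADM than in control-MADM. Olig1, Id3 and Aldh1l1 rose with a clear gap, Pdgfra rose from 1 read in all control libraries together, and Aqp4 rose with a narrow gap between the groups. Gfap, Olig2, Sox10 and Aldoc did not pass the test. In all, 5 of 9 tested members were called higher and 0 lower, against 6.16% of all genes called higher. S100b failed the filter, and Aqp4 and Sox10 passed it only through the cKO-Eed-MADM libraries, so that the count is a description and supports nothing. Without overlap stood 5 of 10 members, Aqp4, Aldh1l1, Id3, Olig1 and Pdgfra, against 10.9% of all genes. Replicate 1 of cKO-Eed-MADM was the lowest of its group in 8 of 10 members, and without it 8 members were called, with Gfap, Olig2 and Sox10 added (adjusted p = 0.0227, 0.0461 and 0.0213). Without a control library 3 members were called, Aldh1l1, Id3 and Olig1.

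Id3 was at 14.8, 18.7 and 20.3 CPM in control-MADM, 16.4, 48.6, 40.0, 6.37 and 6.90 in Eed-MADM and 81.1, 149, 166 and 211 in cKO-Eed-MADM. Each cKO-Eed-MADM library exceeded every library of the other groups. The difference from control-MADM was 3.13 ± 0.62 on the log2 scale (8.74-fold, adjusted p = 0.00453) and that from Eed-MADM 2.73 ± 0.50 (adjusted p = 0.00251).

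Aldh1l1 showed the same separation, with 9.64, 5.94 and 18.1 CPM in control-MADM, 6.19, 18.4, 30.3, 11.5 and 15.1 in Eed-MADM and 31.0, 68.9, 50.5 and 59.9 in cKO-Eed-MADM. The lowest cKO-Eed-MADM library was at 31.0 CPM and the highest Eed-MADM library at 30.3. Aldh1l1 rose 4.79-fold against control-MADM (log2 2.26 ± 0.47, adjusted p = 0.00397) and 3.31-fold against Eed-MADM (adjusted p = 0.00712).

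Gfap, the intermediate filament of astrocytes, was at 4.15, 3.96 and 0.872 CPM in control-MADM, 0, 1.45, 4.50, 2.59 and 0 in Eed-MADM and 4.13, 43.2, 21.6 and 30.3 in cKO-Eed-MADM. Replicate 1 of cKO-Eed-MADM, at 4.13 CPM, lay within the range of both other groups, and the remaining 3 lay far above it. Against Eed-MADM the difference was called (3.86 ± 0.84 on the log2 scale, adjusted p = 0.00584), and against control-MADM it was not (3.08 ± 0.98, adjusted p = 0.0604).

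The water channel gene Aqp4 was at 1.04, 0 and 0 CPM in control-MADM, 0.442, 0, 0, 0.597 and 3.45 in Eed-MADM and 1.45, 6.49, 7.38 and 31.1 in cKO-Eed-MADM. Every cKO-Eed-MADM library lay above the control libraries, and replicate 1, at 1.45 CPM, below the highest Eed-MADM library. The call against control-MADM was marginal (log2 4.81 ± 1.47, adjusted p = 0.049) and was lost without any of 6 libraries, cKO-Eed-MADM replicates 2, 3 and 4 or control-MADM replicates 1, 2 and 3 (adjusted p from 0.0511 to 0.197). It was also lost with DESeq2 (0.051), another expression filter (0.0519) and the replicate number as a block (0.069). Aldoc, at 50.6, 76.9 and 98.6 CPM in control-MADM and 74.7, 249, 178 and 230.0 in cKO-Eed-MADM, overlapped through replicate 1 (adjusted p = 0.313). S100b, a calcium-binding protein gene, had 0 to 8 reads per library in all groups.

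Among the oligodendrocyte genes, the transcription factor gene Olig1 was at 10.7, 4.24 and 2.84 CPM in control-MADM, 16.6, 16.9, 14.5, 55.5 and 4.54 in Eed-MADM and 27.5, 142, 123 and 204 in cKO-Eed-MADM. All cKO-Eed-MADM libraries exceeded the control libraries, and replicate 1 lay below Eed-MADM replicate 4. The differences were 4.37 ± 0.88 on the log2 scale against control-MADM (20.7-fold, adjusted p = 0.00662) and 2.57 ± 0.64 against Eed-MADM (adjusted p = 0.0279). The call against Eed-MADM was lost without cKO-Eed-MADM replicate 2 or 4 or Eed-MADM replicate 1, 2 or 3 (adjusted p from 0.063 to 0.0769).

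Pdgfra, the platelet-derived growth factor receptor of oligodendrocyte precursors, had 0.148, 0 and 0 CPM in control-MADM, 7.30, 2.18, 0, 7.37 and 0 in Eed-MADM and 14.2, 8.20, 4.47 and 11.4 in cKO-Eed-MADM. With 1 read over the control libraries and 197 reads over the cKO-Eed-MADM libraries, the ratio of pooled reads was 141-fold, with an exact 95% counting interval of 24.95 to 5583. The call against control-MADM (adjusted p = 0.0139) was lost without any of the 3 control libraries (adjusted p = 0.0601, 0.0666 and 0.0748 without replicates 1, 2 and 3). Counting intervals cover counting error only.

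Olig2 was at 5.04, 5.37 and 3.71 CPM in control-MADM and 2.89, 31.1, 37.3 and 44.8 in cKO-Eed-MADM, where replicate 1 lay below all controls (adjusted p = 0.149). Sox10, which drives oligodendrocyte differentiation, had 0 reads in the 3 control libraries and 0, 2.39, 11.3 and 12.1 CPM in cKO-Eed-MADM. Against a floor of 3 reads over the control group, its mean was at least 31.9-fold higher, without passing the test (adjusted p = 0.0524).

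Sparse loss of Eed gave no called member at E16.5. Between Eed-MADM and control-MADM edgeR called 0 of 9 tested members and 0.255% of all genes. At an unadjusted p under 0.05 there were 3 members (Olig1, Sox10 and Pdgfra), and DESeq2 called 1, Pdgfra (adjusted p = 0.0364). Olig1 had a log2 difference of 1.80 ± 0.80 (adjusted p = 0.457), Id3 0.40 ± 0.57 and Gfap -0.78 ± 0.91. In cKO-Eed-MADM against Eed-MADM 4 of 9 members were called higher (Gfap, Aldh1l1, Id3 and Olig1) against 4.45% of all genes, and Id3 and Aldh1l1 did not overlap, against 5.25%. Because Aqp4 and Sox10 passed the filter only through the cKO-Eed-MADM libraries, this count too is a description and supports nothing. Aqp4 was just outside the threshold (adjusted p = 0.0509) and passed it without cKO-Eed-MADM replicate 1 or Eed-MADM replicate 5 (adjusted p = 0.0274 and 0.00808). The comparisons of one age share libraries and are not independent of each other.

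The E16.5 differences came with differences in markers of other cell types. Summed markers of projection neurons were at 1503 to 2045 CPM in cKO-Eed-MADM against 3926 to 4202 in control-MADM, with 6 of 6 markers lower. Intermediate progenitor markers were at 206 to 345 CPM against 546 to 698, with 2 of 3 lower. Interneuron and ventral markers were at 278 to 539.7 CPM against 12.9 to 35.3 with 9 of 9 markers higher. Microglial markers were at 15.5 to 63.9 CPM against 4.36 to 9.61 with 8 of 9 higher, and the defining markers Csf1r and Trem2 at 0 in the control libraries. Meningeal markers were at 14.0 to 30.1 CPM against 4.81 to 10.0, with 6 of 7 higher, Slc6a13 at 0 in both groups and Lum at 0 in control-MADM. Radial glia markers overlapped, at 564 to 889 and 629 to 791 CPM. The part of a changed cell mixture in the E16.5 glial differences was not tested.

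**Figure D2:**
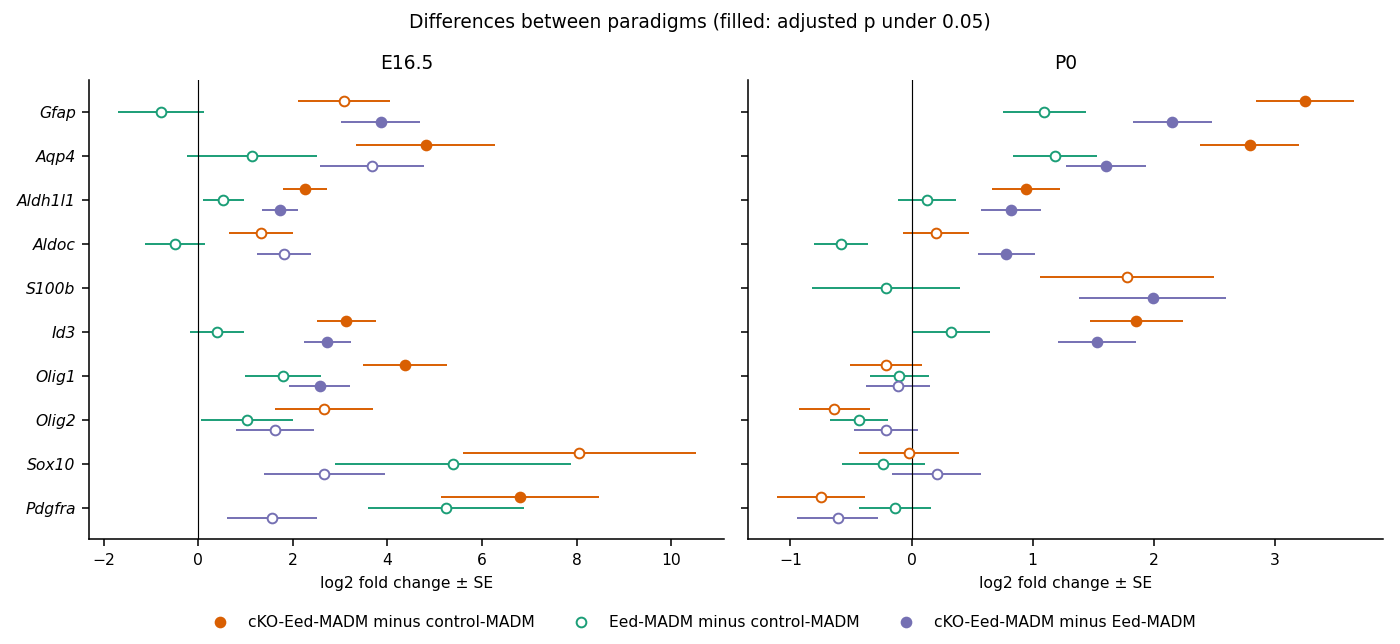
Log2 fold change with its SE (horizontal axis) of each gene in the 3 comparisons between paradigms at E16.5 and at P0, filled where the adjusted p was under 0.05. At E16.5 called genes belong to both lineages, and at P0 they are Gfap, Aqp4, Aldh1l1, Aldoc, S100b and Id3, all on the astrocyte side.

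At P0 called differences between paradigms lay in the astrocyte genes, and no oligodendrocyte member passed the test with all libraries. In cKO-Eed-MADM against control-MADM, 4 of 10 members were called higher (Gfap, Aqp4, Id3 and Aldh1l1) and 0 lower, where 14.2% of all genes were called higher. All 10 members passed the filter in each of the paradigms at this age, S100b with a mean of 14.6 reads in control-MADM.

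Gfap was at 23.8, 36.7, 32.7, 83.7 and 52.9 CPM in the 5 control-MADM libraries, 32.6 to 189 with a median of 100.1 in the 9 Eed-MADM libraries and 459.7, 449, 313 and 518 in the 4 cKO-Eed-MADM libraries. All cKO-Eed-MADM libraries stood above every other library, and Eed-MADM overlapped control-MADM. Gfap rose 9.52-fold against control-MADM (log2 3.25 ± 0.41, adjusted p = 6.91e-06) and 4.45-fold against Eed-MADM (log2 2.15 ± 0.33, adjusted p = 8.76e-05).

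Aqp4 was at 10.4, 20.2, 18.3, 53.4 and 27.5 CPM in control-MADM, 19.3 to 105 with a median of 61.3 in Eed-MADM and 167, 105, 175 and 269 in cKO-Eed-MADM. The cKO-Eed-MADM libraries all exceeded the controls, and the lowest of them, replicate 2, was level with the highest Eed-MADM library, replicate 4, at 105.4 CPM. The rise was 6.92-fold against control-MADM (adjusted p = 3.31e-05) and 3.05-fold against Eed-MADM (adjusted p = 0.00154).

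Id3 was at 131, 233, 161, 461 and 148 CPM in control-MADM, 121 to 513 with a median of 295 in Eed-MADM and 893, 574, 665 and 1159.6 in cKO-Eed-MADM. Its cKO-Eed-MADM libraries also lay above all others. The difference was 1.86 ± 0.38 on the log2 scale against control-MADM (3.62-fold, adjusted p = 0.00143).

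Aldh1l1 was at 73.1, 184, 134, 181 and 111 CPM in control-MADM and 242, 173, 236 and 399 in cKO-Eed-MADM, so that cKO-Eed-MADM replicate 2 fell within the control range. It rose 1.93-fold (adjusted p = 0.0177), a call that was lost without cKO-Eed-MADM replicate 4, the highest library (adjusted p = 0.0948). Aldoc was at 332, 607, 493, 1083 and 487 CPM in control-MADM and 573, 482, 649.9 and 1064 in cKO-Eed-MADM, overlapping widely, and its log2 difference was 0.20 ± 0.27 (adjusted p = 0.635). S100b remained low, with 0.502, 4.14, 4.02, 4.01 and 0.667 CPM in control-MADM, 0.384 to 8.26 with a median of 1.74 in Eed-MADM and 9.33, 5.24, 6.59 and 15.3 in cKO-Eed-MADM. All cKO-Eed-MADM libraries lay above the controls while the test missed the threshold (log2 1.78 ± 0.72, adjusted p = 0.0735). S100b was called with DESeq2 (adjusted p = 0.0487), all green libraries (0.0443), the replicate number as a block (0.0401) and thinning to the smallest library (0.04). The newer quasi-likelihood method, chosen after seeing the data, called it too (0.00679), and the remaining settings did not. Without overlap between the groups stood 4 members, Gfap, Aqp4, Id3 and S100b, and 10.2% of all genes higher in cKO-Eed-MADM. S100b (chr10:76253853-76261159, GRCm38) overlaps Dip2a on the opposite strand, and unstranded counts cannot tell the reads of such genes apart by strand.

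Against Eed-MADM, 6 of 10 members were called higher in cKO-Eed-MADM at P0, the 6 astrocyte genes, with 11.2% of all genes called higher. Besides those above they included Aldoc (1.72-fold, adjusted p = 0.0222) and S100b (3.97-fold, adjusted p = 0.0226). Aldh1l1, Aldoc and S100b lost the call without cKO-Eed-MADM replicate 4 (adjusted p = 0.158, 0.172 and 0.119). Between Eed-MADM and control-MADM edgeR and DESeq2 each called 0 of 10 members, with 1.75% of all genes called by edgeR and 3 members under an unadjusted p of 0.05. Aqp4 (log2 1.18 ± 0.35, adjusted p = 0.0883) and Gfap (1.10 ± 0.34, adjusted p = 0.107) were 2 of these 3, and Aldoc (-0.58 ± 0.22, adjusted p = 0.185) was the third. Without control-MADM replicate 5, which had the highest Gfap and Aqp4 among the controls, both were called (adjusted p = 0.0427 and 0.0159). Gfap, Aqp4 and Id3 did not overlap between cKO-Eed-MADM and Eed-MADM, against 5.92% of all genes. For Aqp4 this held only just, as the nearest libraries of these groups were level in the rounded values given above.

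The oligodendrocyte genes at P0 showed groups that overlapped. Olig1 was at 551, 1131, 1078, 1235 and 993 CPM in control-MADM, 404 to 1209.5 with a median of 945 in Eed-MADM and 924, 369, 1054 and 1104 in cKO-Eed-MADM. The lowest value belonged to cKO-Eed-MADM replicate 2, which also had the fewest reads on genes at P0. Its log2 difference from control-MADM was -0.21 ± 0.29 (adjusted p = 0.652).

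Olig2 was at 146, 296, 297, 403 and 355 CPM in control-MADM and 207, 108, 215 and 238 in cKO-Eed-MADM (log2 -0.64 ± 0.30, adjusted p = 0.125), and without control-MADM replicate 1, the lowest control, it was called lower (adjusted p = 0.0324). Pdgfra was at 43.3, 101, 91.9, 105 and 113 CPM in control-MADM and 68.4, 23.0, 65.7 and 57.4 in cKO-Eed-MADM (log2 -0.75 ± 0.36, adjusted p = 0.143). Sox10 was at 53.7, 99.1, 105, 196 and 149.9 CPM in control-MADM and 124, 46.8, 114 and 191 in cKO-Eed-MADM (log2 -0.02 ± 0.41, adjusted p = 0.976). For each of these genes some cKO-Eed-MADM libraries lay inside the control range. A p that misses the threshold does not show that the levels were equal.

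At P0 the other cell type markers moved again. Projection neuron markers summed to 284 to 609.9 CPM in cKO-Eed-MADM against 1112 to 2347 in control-MADM, with 1 of 6 markers higher. Intermediate progenitor markers were at 451 to 819 CPM against 235 to 396, the opposite direction to E16.5, with 1 of 3 higher and 2 lower. Microglial markers were at 174 to 411 CPM against 6.00 to 53.4 (9 of 9 higher) and meningeal markers at 98.5 to 251 against 9.84 to 16.03 (7 of 7 higher), with no defining marker at 0 in all libraries of either group. Interneuron and ventral markers were lower in sum, at 182 to 270.3 CPM against 387 to 933, with 2 of 9 markers higher. Radial glia markers overlapped between 886 to 2018 and 743 to 1552 CPM, with 3 of 7 higher. Vim and other radial glia genes are also expressed by astrocytes, and Id3 by meningeal and vascular cells. Their part in the P0 astrocyte differences was not tested.

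**Figure D3:**
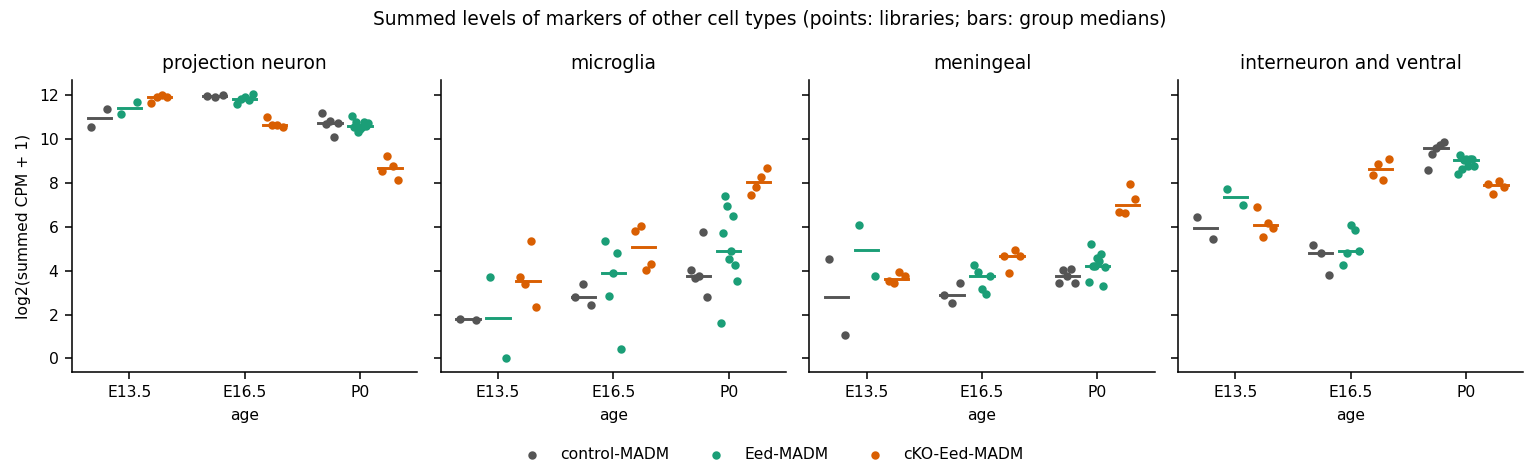
Summed level of the markers of 4 other cell types as log2(summed CPM + 1) in every used library from E13.5 to P0, with bars at the group medians. Projection neuron markers are lower and microglial and meningeal markers higher in cKO-Eed-MADM at E16.5 and P0, and the interneuron and ventral markers are higher at E16.5 and lower at P0.

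The course over age was read in a fit of 9 groups from E13.5 to P0. In control-MADM 9 of 10 members rose from E16.5 to P0, all but S100b, against 8.31% of all genes. All 10 rose in Eed-MADM, against 12.1%, and likewise in cKO-Eed-MADM, against 9.58%. Without 1 library S100b alone lost a call, in Eed-MADM without E16.5 replicate 1, 2, 3 or 5 (adjusted p up to 0.0958), and without P0 cKO-Eed-MADM replicate 1 or 4 it failed the filter and was not tested in cKO-Eed-MADM. Several members passed the filter through P0 alone, so these counts describe the course and test nothing. In control-MADM the largest called fitted steps belonged to oligodendrocyte genes. Olig1 rose 161-fold and Olig2 64.1-fold. Sox10 rose at least 598-fold from 0 reads, and Pdgfra, from 1 read, rose 1339-fold, with an exact 95% counting interval of 240.1 to 52917. Aqp4 rose 55.4-fold. Gfap rose 15.2-fold, Id3 12.8-fold and Aldoc 8.07-fold.

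From E13.5 to E16.5 edgeR called fewer members as rising outside cKO-Eed-MADM. The groups held 2 and 3 libraries in control-MADM, 2 and 5 in Eed-MADM and 4 and 4 in cKO-Eed-MADM. Whether this step differed between paradigms was not tested. DESeq2, unlike edgeR, called a rise of Gfap in control-MADM and Eed-MADM (adjusted p = 0.00307 and 0.0104) and of Olig1 in control-MADM (0.0152). In control-MADM Aldh1l1 rose and Aldoc fell, with 8.44% and 7.32% of all genes rising and falling, and in Eed-MADM Aldh1l1 and Olig1 rose and Aldoc fell, with 9.99% and 9.28%. In cKO-Eed-MADM 7 of 10 rose and none fell, Gfap, Aqp4, Aldh1l1, Id3, Olig1, Sox10 and Pdgfra, against 9.94% of all genes. Aldh1l1 rose 19.3-fold in control-MADM (adjusted p = 0.0117, lost without E13.5 replicate 3, 0.103), at least 53.4-fold in Eed-MADM and 13.2-fold in cKO-Eed-MADM. The fall of Aldoc in control-MADM (-1.76 ± 0.55 on the log2 scale, adjusted p = 0.0247) was lost without E13.5 control replicate 1 or 3 or E16.5 control replicate 1 or 2 (adjusted p from 0.0635 to 0.109). The fall of Aldoc in Eed-MADM (adjusted p = 0.0481) was lost without E13.5 replicate 2 or 6 or E16.5 replicate 1, 4 or 5, and the rise of Olig1 there without E13.5 replicate 6 (adjusted p = 0.157). In cKO-Eed-MADM Pdgfra lost its call without E13.5 replicate 3 (adjusted p = 0.0561), and Olig2 gained one without E13.5 replicate 2 or E16.5 replicate 1. The rise of Olig1 in cKO-Eed-MADM, from 3 reads over the E13.5 group, was 796-fold, with an exact 95% counting interval of 272 to 3862.

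Whether the E16.5 to P0 step differed between paradigms was tested directly. The step was smaller in cKO-Eed-MADM than in control-MADM for Olig1 (difference of log2 steps -4.55 ± 0.87, adjusted p = 0.00323) and Pdgfra (-7.50 ± 1.43, adjusted p = 0.00263), 2 of 10 members against 0.768% of all genes. For Pdgfra the size depends on how the fit treats a control group with 1 read. Olig1 stood at 5.92 ± 4.20 CPM at E16.5 and 998 ± 262 at P0 in control-MADM (mean ± SD, n = 3 and 5), and at 124.0 ± 73.0 and 863 ± 338 in cKO-Eed-MADM (n = 4 and 4). The groups were thus apart at E16.5 and overlapped at P0. Olig2 and Sox10 had differences of -3.29 ± 0.92 and -8.06 ± 2.21 that missed the threshold (adjusted p = 0.0755 and 0.0703) and passed it without E16.5 cKO-Eed-MADM replicate 1 (0.0145 and 0.0162). DESeq2 called Sox10 (-7.40, adjusted p = 0.00863). Olig2 was called after thinning to the smallest library (0.0447) and with the newer quasi-likelihood method (0.0301). Testing without a filter on low counts called both genes, and the remaining settings called neither.

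The step of Gfap did not differ detectably (0.20 ± 0.97, adjusted p = 0.974), nor did that of Id3 (-1.25 ± 0.80, adjusted p = 0.587). Against Eed-MADM, the step of Olig1 alone was called smaller in cKO-Eed-MADM (-2.66 ± 0.70, adjusted p = 0.0432, 1.08% of all genes), and 11 of 13 fits that left out a library lost it (adjusted p up to 0.112), those without any of the 4 P0 cKO-Eed-MADM libraries, E16.5 cKO-Eed-MADM replicates 2, 3 or 4, or E16.5 Eed-MADM replicates 1, 2, 3 or 5. Between Eed-MADM and control-MADM edgeR and DESeq2 called 0 of 10 members, with 2 under an unadjusted p of 0.05 and 0.0215% of all genes called by edgeR.

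**Figure D4:**
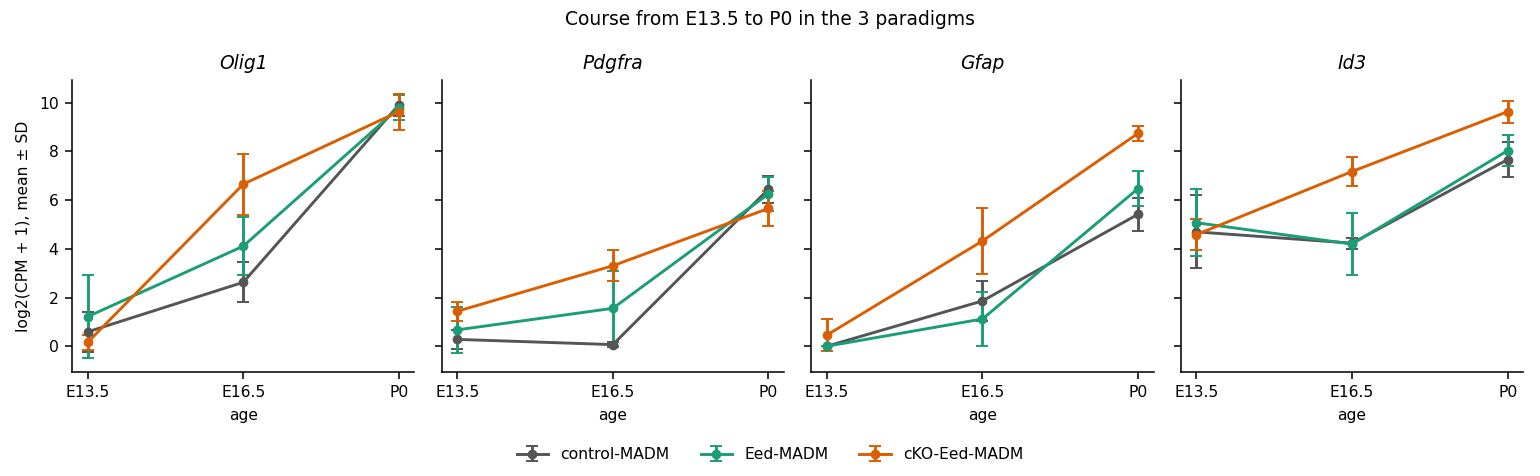
Mean ± SD of log2(CPM + 1) over the libraries of each paradigm at E13.5, E16.5 and P0 for Olig1, Pdgfra, Gfap and Id3. For the oligodendrocyte genes Olig1 and Pdgfra, cKO-Eed-MADM lies above control-MADM at E16.5, and their libraries overlap at P0. For Gfap and Id3, cKO-Eed-MADM lies above both other paradigms at P0, and Eed-MADM and control-MADM overlap there.

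Levels of different genes were compared per kilobase (kb) of exon. At P0 in control-MADM Olig1 had the highest mean, 461 ± 122 CPM per kb (mean ± SD, n = 5), followed by Aldoc (184 ± 88.0), Id3 (127 ± 76.2), Olig2 (118 ± 38.1), Sox10 (39.5 ± 17.7) and Aldh1l1 (30.3 ± 10.5). Gfap (10.9 ± 5.59), Pdgfra (9.06 ± 2.76), Aqp4 (4.16 ± 2.65) and S100b (1.80 ± 1.28) came last. In all 9 pairs of neighbours in that order the library ranges overlapped, so that the order of neighbours is not resolved. In cKO-Eed-MADM Id3 came first (459 ± 146 CPM per kb, n = 4), overlapping Olig1 (399 ± 156), and Gfap stood at the fourth rank (103 ± 20.5), below Aldoc without overlap and overlapping Olig2. Pdgfra came last, overlapping S100b. For Olig1 a lincRNA, Gm15966, overlaps the gene at chr16:91269772-91271933 (GRCm38), and reads shared by overlapping genes are assigned to neither. Gfap, Aldh1l1, S100b and Pdgfra also overlap other annotated genes, so that their counts can lose reads in the same way.

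**Figure D5:**
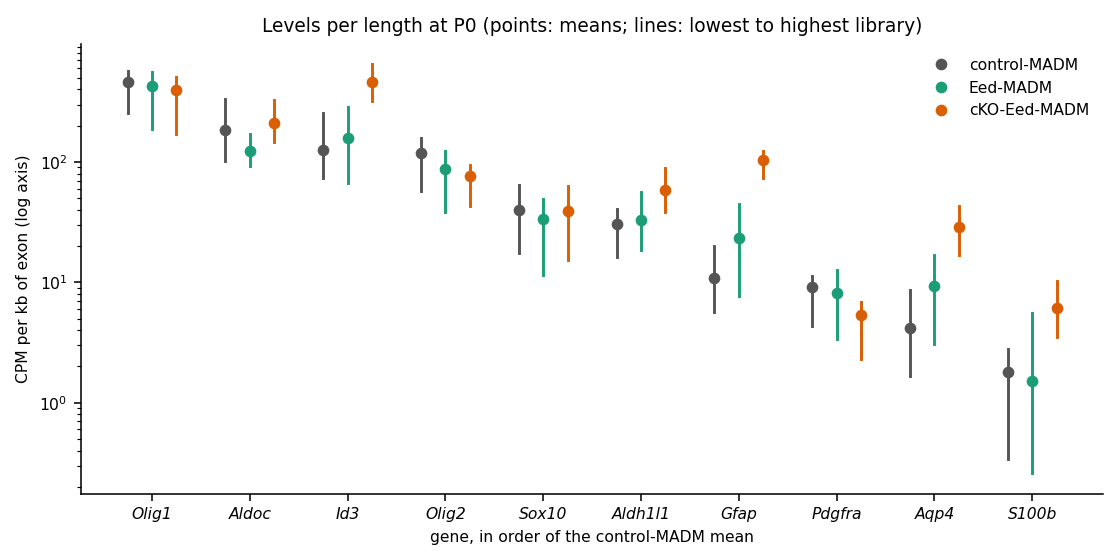
Level at P0 per kb of exon, on a log axis, of each gene in the 3 paradigms, with points at the means and lines from the lowest to the highest library. Olig1 has the highest control-MADM mean and S100b the lowest, and for Gfap, Aqp4, Id3 and S100b the whole cKO-Eed-MADM line lies above the control-MADM line.

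Other genes of the astrocyte lineage, a list of 40 without the members, was called in the same direction as Gfap and Aqp4 in most of its calls. At E16.5, 14 of 33 tested were called higher in cKO-Eed-MADM than in control-MADM and 0 lower, beside 6.16% and 2.42% of all genes, with a median log2 difference of 1.07 beside 0.00 over all genes. The glutamate transporter genes Slc1a2 (3.41 ± 0.41, adjusted p = 2.46e-05) and Slc1a3 (1.64 ± 0.32), the matrix proteoglycan gene Bcan (1.48 ± 0.28) and the membrane protein gene Mlc1 (2.07 ± 0.43) were the 4 with the lowest p. At P0, 20 of 38 were called higher and 2 lower, beside 14.2% and 10.0% of all genes, with a median of 0.90 beside -0.01. Slc1a2 (2.77 ± 0.30, adjusted p = 6.73e-07), Sparcl1 (1.99 ± 0.28), which encodes a secreted synapse organizer, Clu (1.31 ± 0.20), which encodes the chaperone clusterin, and Atp1b2 (1.37 ± 0.23), a sodium pump subunit, led the rise. The thyroid hormone and organic anion transporter gene Slco1c1 fell by 3.82 ± 0.41 on the log2 scale (adjusted p = 4.12e-07). The metallothionein gene Mt3 fell by 0.90 ± 0.32, a call lost without cKO-Eed-MADM replicate 1, 2 or 3 or control-MADM replicate 2 or 5 (adjusted p up to 0.174). It was also lost with DESeq2 (0.0543), DESeq2 size factors (0.0524), the reads of either strand (0.0544 and 0.0612) and after thinning to the smallest library (0.0546). No filter on low counts (0.119), all green libraries (0.0909), only the 2 groups compared (0.074) and the replicate number as a block (0.158) ended it too. In Eed-MADM against control-MADM no list gene was called at E16.5 (3 under an unadjusted p of 0.05), and at P0 Mt3 alone was called, as lower (-0.996 ± 0.25, adjusted p = 0.047), which was lost without control-MADM replicate 2, 5 or 6 (up to 0.203). This call was also lost with the reads of either strand (0.0683 and 0.0566) and with the replicate number as a block (0.149). No filter on low counts (0.148), all green libraries (0.0745) and thinning (0.0537) ended it too.

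Of 35 other oligodendrocyte lineage genes, 5 of 19 tested were called higher at E16.5 in cKO-Eed-MADM against control-MADM and 0 lower, beside 6.16% and 2.42% of all genes (median 1.72). Mbp, a myelin protein gene with an early non-myelin transcript, differed by 1.72 ± 0.31 (adjusted p = 0.00108), the SoxE factor gene Sox8 by 2.05 ± 0.47, the growth factor receptor gene Egfr by 4.88 ± 1.12 and the Notch ligand gene Dll3 by 0.73 ± 0.17. Without control-MADM replicate 1 the calls of Sox8, Egfr and Dll3 were lost, and that of Sox8 also without replicate 3 (adjusted p up to 0.0824). At P0, 6 of 26 were called higher and 1 lower, beside 14.2% and 10.0% of all genes (median 0.31). Nkx2-2, a homeobox gene of ventral and oligodendrocyte progenitors, rose by 2.52 ± 0.46 (adjusted p = 0.000267), and the tight junction gene Cldn11, also expressed in meninges, by 3.35 ± 0.92, a call lost without cKO-Eed-MADM replicate 4 (adjusted p = 0.0872). Mag, a myelin adhesion gene, had 105 reads over the cKO-Eed-MADM libraries and 0 over the control libraries, at least 64.0-fold higher against a floor of 3 reads. Mbp rose by 1.13 ± 0.25 and the kinase gene Fyn fell by 0.43 ± 0.12 on the log2 scale. The call of Fyn was lost with the replicate number as a block (adjusted p = 0.0698). In Eed-MADM against control-MADM at P0, 2 of 26 were called, Mag, at least 21.9-fold higher, and Mbp (0.90 ± 0.21, adjusted p = 0.0304). Both calls were lost without control-MADM replicate 4 or 6, and that of Mbp without replicate 5 (adjusted p up to 0.0606 and 0.0839). With the replicate number as a block both were lost (0.0693 and 0.08). The call of Mbp was also lost in other settings, such as all green libraries (0.16) and the second strand (0.105).

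Among 45 regulators of gliogenesis, 6 of 40 tested were called higher and 4 lower at E16.5 in cKO-Eed-MADM against control-MADM (median 0.29), beside 6.16% and 2.42% of all genes. The cytokine signal transducer gene Stat3 (2.12 ± 0.27, adjusted p = 4.3e-05), the BMP-responsive gene Id1 (2.63 ± 0.34) and the glial fate factor gene Sox9 (1.37 ± 0.30) rose. The proneural gene Neurog2 (-2.66 ± 0.29), Id2 (-0.996 ± 0.10), which encodes another inhibitor of basic helix-loop-helix factors, the cortical selector gene Lhx2 (-1.24 ± 0.17) and the growth factor receptor gene Fgfr2 (-0.92 ± 0.25, adjusted p = 0.0234) fell. The E16.5 call of Fgfr2 was lost without cKO-Eed-MADM replicate 4 or control-MADM replicate 2 or 3 (adjusted p = 0.0703, 0.0700 and 0.106), with the reads of the first strand (0.0572) and after thinning to the smallest library (0.0509). With the replicate number as a block it was lost too (0.0572). Egfr is in this list too. At P0, 12 of 40 were called higher and 7 lower (median 0.38), where 14.2% of all genes were called higher and 10.0% lower. Hey1 (1.70 ± 0.30, adjusted p = 0.000181) and Hes1 (1.40 ± 0.31), targets of Notch, Fgfr2 (1.20 ± 0.23) and the cytokine receptor gene Lifr (1.55 ± 0.36) rose, and Lhx2 (-1.85 ± 0.15), the gliogenic factor gene Nfix (-1.34 ± 0.13), Id2 (-1.38 ± 0.17) and the DNA methyltransferase gene Dnmt1 (-0.80 ± 0.12) fell. In Eed-MADM against control-MADM the kinase gene Jak1 alone was called at P0 (0.67 ± 0.15, adjusted p = 0.0223). Its call was lost without control-MADM replicate 6 (adjusted p = 0.0819) and with the replicate number as a block (0.091). At E16.5, 0 of 40 were called (3 under an unadjusted p of 0.05). The E16.5 to P0 step of Nfix differed between cKO-Eed-MADM and control-MADM (-1.23 ± 0.21, adjusted p = 0.000472), and those of Fgfr2 (2.13 ± 0.35, adjusted p = 0.000235) and the proneural gene Neurog1 in the opposite direction, Neurog1 having 0 reads in control-MADM at P0. With all green libraries the calls of Nfix and Fgfr2 were lost (adjusted p = 0.0798 and 0.374). No gene of the astrocyte list (10 of 36 under an unadjusted p of 0.05) or of the oligodendrocyte list (14 of 25) was called for that difference by edgeR.

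Against Eed-MADM the 3 lists gave similar counts. At E16.5 the astrocyte list had 15 called higher and 0 lower of 33, the oligodendrocyte list 3 and 1 of 19, and the regulators 6 and 3 of 40. At P0 they had 20 and 1 of 38, 4 and 2 of 26, and 10 and 7 of 40. Of all genes 4.45% were called higher and 2.58% lower at E16.5, and 11.2% and 8.26% at P0. At E12.5 none of the genes in the 3 lists was called in any comparison, and at E13.5 only the growth factor receptor gene Fgfr3, in the astrocyte list and among the regulators, was called, lower in cKO-Eed-MADM than in control-MADM (-1.74 ± 0.28, adjusted p = 0.0476). The Fgfr3 call was lost without any 1 of the 4 cKO-Eed-MADM libraries or without control-MADM replicate 1 (adjusted p from 0.0619 to 0.435), and with all green libraries (0.986). The replicate number as a block also ended it (0.0648). From E16.5 to P0 34 of 36 astrocyte list genes rose in control-MADM, where Eed-MADM had 36 and cKO-Eed-MADM 32. Of 25 oligodendrocyte list genes 19, 19 and 18 rose, beside 8.31%, 12.1% and 9.58% of all genes in the same order. As for the members, these counts describe the course and test nothing.

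The closest patterns to each member were sought across the 38 used libraries of E13.5, E16.5 and P0, which share age and paradigm as their main sources of variation. By Pearson's r of log2(CPM + 1), the genes most like Gfap were Slc1a3 (r = 0.96), Apoe (r = 0.96) and Hepacam (r = 0.96), and those most like Aqp4 Ramp1 (r = 0.96), Gm6145 (r = 0.96) and Slc1a3 (r = 0.96). Olig1 was most like Tspan7 (r = 0.97), Hepacam (r = 0.96) and Ncald (r = 0.95), Olig2 most like Sox10 (r = 0.95), Crls1 (r = 0.94) and Fabp7 (r = 0.94), Sox10 most like Sox8 (r = 0.97), Slc13a3 (r = 0.96) and Bcan (r = 0.96) and Pdgfra most like Sox10 (r = 0.95), Olig1 (r = 0.93) and Egfr (r = 0.93). For Id3 the nearest genes were Mlc1 (r = 0.94), Slc1a2 (r = 0.94) and Tgfb2 (r = 0.94), for Aldh1l1 Cacng5 (r = 0.95), Tnc (r = 0.95) and Sparcl1 (r = 0.95) and for Aldoc Plpp3 (r = 0.91), S1pr1 (r = 0.90) and Qk (r = 0.90). S100b had the weakest resemblance, to Lamp1 (r = 0.79), Zfp36 (r = 0.79) and Tmbim6 (r = 0.78). These values are a description over libraries and carry no test.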

How the data were processed

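Green, red and yellow cells of MADM cortices had been sorted and sequenced by Smart-Seq2. The authors aligned the reads with STAR (version 2.5.0c in the study's methods, without a version in the submitters' processing notes, which name GRCm38 and mm10) to GENCODE M21 genes, and deposited for each library the counts of uniquely aligned reads per gene. The unstranded counts were used here, and the rows that name no gene, 13.4% to 40.1% of uniquely aligned reads in the used libraries, were left out. Gene names were taken for 53274 of 53379 identifiers. Groups came from the labels, and 13 green libraries below the depth limits were not used. The study also removed green samples for low correlation with replicates or for many reads in the deleted region of Eed. Those criteria were not applied here, so that some libraries used here may be ones that the study left out.

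Counts were fitted with the edgeR quasi-likelihood test (edgeR 4.0.16, limma 3.58.1, R 4.3.3, TMM scaling, robust), within each age over the 3 paradigms and, for the steps between ages, over 9 groups of E13.5, E16.5 and P0, with Benjamini-Hochberg adjustment over all genes tested and a threshold of 0.05. Genes needed a mean above 1 read at E12.5 and above 10 reads at the other ages. SEs are those of the log2 fold change. Printed CPM were scaled over all used libraries together, so that a ratio of printed means can differ from a fitted fold. DESeq2 1.42.0, other filters, scalings, sample sets and strands and the replicate number as a block were run as alternatives, and libraries were left out in turn in groups of 2 to 5. The pipeline was tested on simulated counts. Ratios against 1 to 3 reads carry exact 95% counting intervals, and against 0 reads a floor of 3 reads over the group. Likeness used log2(CPM + 1) of genes with a mean of at least 5 CPM.

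The members and the other gene lists were chosen with earlier results of these data known. Named genes are the members, Eed, the closest 3 genes to each member by Pearson's r and, from each list and comparison, up to 4 called genes in each direction in order of adjusted p, of which those of the comparisons with control-MADM are described. Of the genes that this rule names, 1 is not reported here. No library was a near copy of another.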

Additional observations from a re-analysis of the deposited data

Results flagged for a closer look

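In 16 of 88 sets of 1 gene in 1 group of 4 to 10 libraries, a single library lay far above the rest. Where the other libraries had 0 reads, any read in 1 library gives this, so the number cannot be set against chance. Most of the 16 held few reads. Gfap reached 0.605 CPM in E12.5 control-MADM replicate 3 (1 read) and 1.67 CPM in E12.5 Eed-MADM replicate 5. Aqp4 reached 1.05 CPM in E12.5 control-MADM replicate 2, 8.63 CPM in E12.5 Eed-MADM replicate 9, 1.19 CPM in E12.5 cKO-Eed-MADM replicate 2, 0.229 CPM in E13.5 cKO-Eed-MADM replicate 5 and 3.45 CPM in E16.5 Eed-MADM replicate 5. Sox10 reached 7.91 CPM in E12.5 Eed-MADM replicate 9, 4.74 CPM in E12.5 cKO-Eed-MADM replicate 2 and 0.666 CPM in E13.5 cKO-Eed-MADM replicate 1. Olig1 reached 18.4 CPM in E12.5 Eed-MADM replicate 6, 0.559 CPM in E13.5 cKO-Eed-MADM replicate 3 and 55.5 CPM in E16.5 Eed-MADM replicate 4, the last against 16.9 CPM in the next library and in the E16.5 library with the highest choroid plexus markers. Aldh1l1 reached 9.47 CPM in E12.5 control-MADM replicate 4, with 0 reads in the other 4 libraries. S100b reached 1.61 CPM in E12.5 control-MADM replicate 1 and 8.26 CPM in P0 Eed-MADM replicate 8. Aqp4 and Sox10 stood out in the same E12.5 libraries, Eed-MADM replicate 9 and cKO-Eed-MADM replicate 2.

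The E16.5 to P0 step differed between paradigms, by the test of the difference itself, for Olig1 and Pdgfra in cKO-Eed-MADM against control-MADM (-4.55 and -7.50 on the log2 scale) and for Olig1 in cKO-Eed-MADM against Eed-MADM (-2.66, adjusted p = 0.0432).

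The red and yellow libraries, which the comparisons above do not use, held the same genes. Of 48, 37 met the depth limits, 27 of them at E13.5 to P0. In cKO-Eed-MADM these cells are Eed-/- as well. At E16.5, with 2 cKO-Eed-MADM and 3 control-MADM libraries, 9 of 10 members were higher in cKO-Eed-MADM without overlap, where 21.7% of all genes tested were. The cKO-Eed-MADM libraries were 2 red ones and the control-MADM libraries 2 red and 1 yellow, so that colour was not balanced. Red cells carry the maternal chromosome 7 in both copies. On a scale of counts per 1000000 reads on genes, without further scaling, the lowest cKO-Eed-MADM library had 68.1 CPM of Olig1 against 11.3 in the highest control library, 114.6 of Id3 against 10.5, 54.6 of Aldh1l1 against 14.6, 9.97 of Pdgfra against 0.299 and 12.9 of Aqp4 against 0.597. Gfap stood at 4.54 against 0.597 CPM, Aldoc at 139.5 against 104, Olig2 at 11.3 against 3.05 and Sox10 at 2.84 against 1.79 (15 and 6 reads). The 1 Eed-MADM library of E16.5 within the depth limits, of red Eed+/+ cells, had 11.7 CPM of Olig2, above the lowest cKO-Eed-MADM library. For the other members named here it lay below, with Aldoc at 133 CPM. At P0, with 3 and 4 libraries, Gfap alone did not overlap, at 81.2 against 43.2 CPM, where 8.08% of all genes did not. No test was run on these libraries.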

How the results depend on the processing

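Gfap, Aqp4 and Id3 at P0 in cKO-Eed-MADM against control-MADM were called in 11 of 11 alternative settings and in 9 of 9 fits without 1 library, and Aldh1l1, Id3 and Olig1 at E16.5 in 10 of 10 and 7 of 7. Of the alternative values of single members, 2778 kept their direction and side of the threshold, 69 lost and 88 gained a call, and 2 reversed. Testing without a filter on low counts raised the number of members called to 1 (E12.5, cKO-Eed-MADM against Eed-MADM), 1 (E13.5, cKO-Eed-MADM against control-MADM), 9, 2 and 7 (E16.5, cKO-Eed-MADM against control-MADM, Eed-MADM against control-MADM and cKO-Eed-MADM against Eed-MADM), 6 and 8 (E13.5 to E16.5 in control-MADM and Eed-MADM) and 7, 5 and 8 (differences of steps in the same order as at E16.5), and it ended the P0 calls of Aldh1l1 against control-MADM (adjusted p = 0.0826) and of Aldh1l1 and Aldoc against Eed-MADM (adjusted p = 0.0923 and 0.0985). The newer quasi-likelihood method, chosen after seeing the data, gave 1 at E12.5 in cKO-Eed-MADM against Eed-MADM and 8 at E16.5 against control-MADM, where a fit of only the 2 groups gave 9. DESeq2 gave 1 at E13.5 against control-MADM, 1 at E16.5 in Eed-MADM against control-MADM, 4 for E13.5 to E16.5 in control-MADM and 0 for the difference of steps against Eed-MADM, for which DESeq2 size factors, another expression filter and all green libraries also gave 0. All green libraries gave 0 for E13.5 to E16.5 in control-MADM, 6 for E16.5 to P0 in cKO-Eed-MADM and 1 for the difference of steps against control-MADM, and reversed the E13.5 to E16.5 step in Eed-MADM of Aldh1l1 (-1.19), Olig1 (-4.17), Sparcl1 (-1.57), Ptprz1 (-0.26), Tnc (-0.65) and Rlbp1 (-0.45). The cause was not tested. Without division by length, 4 of 10 members kept their rank at P0 in control-MADM and in Eed-MADM and 2 of 10 in cKO-Eed-MADM.

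Without 1 library, the number of members called ranged from 3 to 8 (E16.5, cKO-Eed-MADM against control-MADM), 0 to 2 (P0, Eed-MADM against control-MADM), 3 to 6 (P0, cKO-Eed-MADM against Eed-MADM), 0 to 3 and 1 to 3 (E13.5 to E16.5 in control-MADM and Eed-MADM), 2 to 4 and 0 to 1 (differences of steps against control-MADM and Eed-MADM). Whether the replicate numbers pair the samples was not tested. Correlations of same-numbered deviations ran from -0.167 to 0.376, with 0.1 or less in at least 1 pair of each comparison that shares numbers. Eed-MADM and control-MADM share none at E13.5, and their means at E12.5, E16.5 and P0 were 0.122, 0.0660 and 0.124. In order of age the means were -0.0482, -0.0869, -0.0533 and 0.0136 for cKO-Eed-MADM with control-MADM. With Eed-MADM they were -0.0742, -0.0176, 0.0306 and 0.0637. Means over pairs with different numbers lay between -0.0164 and 0.0290. With the replicate number as a block, 1 member (Aqp4) was called at P0 in Eed-MADM against control-MADM (adjusted p = 0.0453), and Aqp4 was not called at E16.5 against control-MADM (adjusted p = 0.069). Over all genes, edgeR and DESeq2 called 5 and 289 (E13.5, cKO-Eed-MADM against control-MADM), 34 and 231 (E16.5, Eed-MADM against control-MADM), 248 and 608 (P0, Eed-MADM against control-MADM) and 163 and 300 (difference of steps against control-MADM). Depth limits what can be said at E12.5, where the libraries held the fewest reads and 2 of 10 members were too low to be tested. At E13.5, at the depth of the later ages, 7 of 10 were too low. The filter asked for a mean above 10 reads there and above 1 read at E12.5, so these counts cannot be compared.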
